A study of Caenorhabditis elegans with 2 samples.

Results

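The subunits of the proteasome were taken as the protein-coding genes of Caenorhabditis elegans whose names begin with pas, pbs, rpn or rpt followed by a number. The rule gave 33 of 19973 protein-coding genes, 14 of the core particle (pas and pbs) and 19 of the regulatory particle (rpn and rpt). NHR-10 was mapped on the genome of whole L2 larvae by ChIP-seq, which sequences the DNA pulled down with a protein. All animals were of strain OP239, which carries the allele unc-119(ed3) III and the integrated transgene wgIs239. The transgene gives a stable NHR-10 fusion with GFP and FLAG at the C terminus. The sex of the animals was recorded as males and females pooled, and their age was not stated. There was 1 group of 2 biological replicates, separate biosamples of the same strain, so nothing could be compared between conditions. A control library belonged to the design and was not analysed here. Whole larvae mix all tissues, so binding in few cells and weak binding in many cannot be told apart.

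The proteasome is the protease complex that degrades proteins tagged with ubiquitin. Its core particle is a barrel in which rings of beta subunits, some of which cut proteins, are stacked between rings of alpha subunits that form the gate. The regulatory particle caps the barrel. Its base holds ring-forming ATPases that unfold the substrate together with scaffold subunits and ubiquitin receptors, and its lid removes the ubiquitin chain. The receptor NHR-10, of the nuclear hormone receptor family, is known in C. elegans for its part in the propionate shunt, where it acts with NHR-68.

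Most proteasome subunit genes had a region in a list that holds peaks and background together. Only 1 of the 33, rpn-3, had a region strong enough for the thresholded list. The first list, here the pooled list, was called on both replicates together. Because it was deposited as peaks and background, a region in it need not mark NHR-10 binding. In it, 23 of 33 genes (69.7%) had a region with its summit within 1000 bp of an annotated transcription start site (TSS). Among all protein-coding genes, 53% had one, 10585 of 19973. The thresholded list held the 491 pooled regions of highest signal, which the authors kept by IDR (irreproducible discovery rate), a score of how alike the replicates rank regions. Its share was 3.03% of the proteasome genes and 2.47% of all genes, so the 1 gene was near the background. The deposited signal of a member's highest pooled region spanned 6.451 to 66.14, and its median of 11.57 compares with 9.514 over all genes with a region. Signal is the authors' own value per region, and 17 of the 23 lay above that all-gene median. The median pooled region of any kind had a signal of 8.383, and the weakest thresholded one 27.36. At the level of the highest 10% of pooled regions, 9 of 33 members (27.3%) and 10.6% of all genes had a region. The 9 were pas-5, pbs-1, pbs-5 and pbs-7 of the core and rpn-2, rpn-3, rpn-11, rpt-2 and rpt-4 of the regulatory particle.

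**Figure D1:**
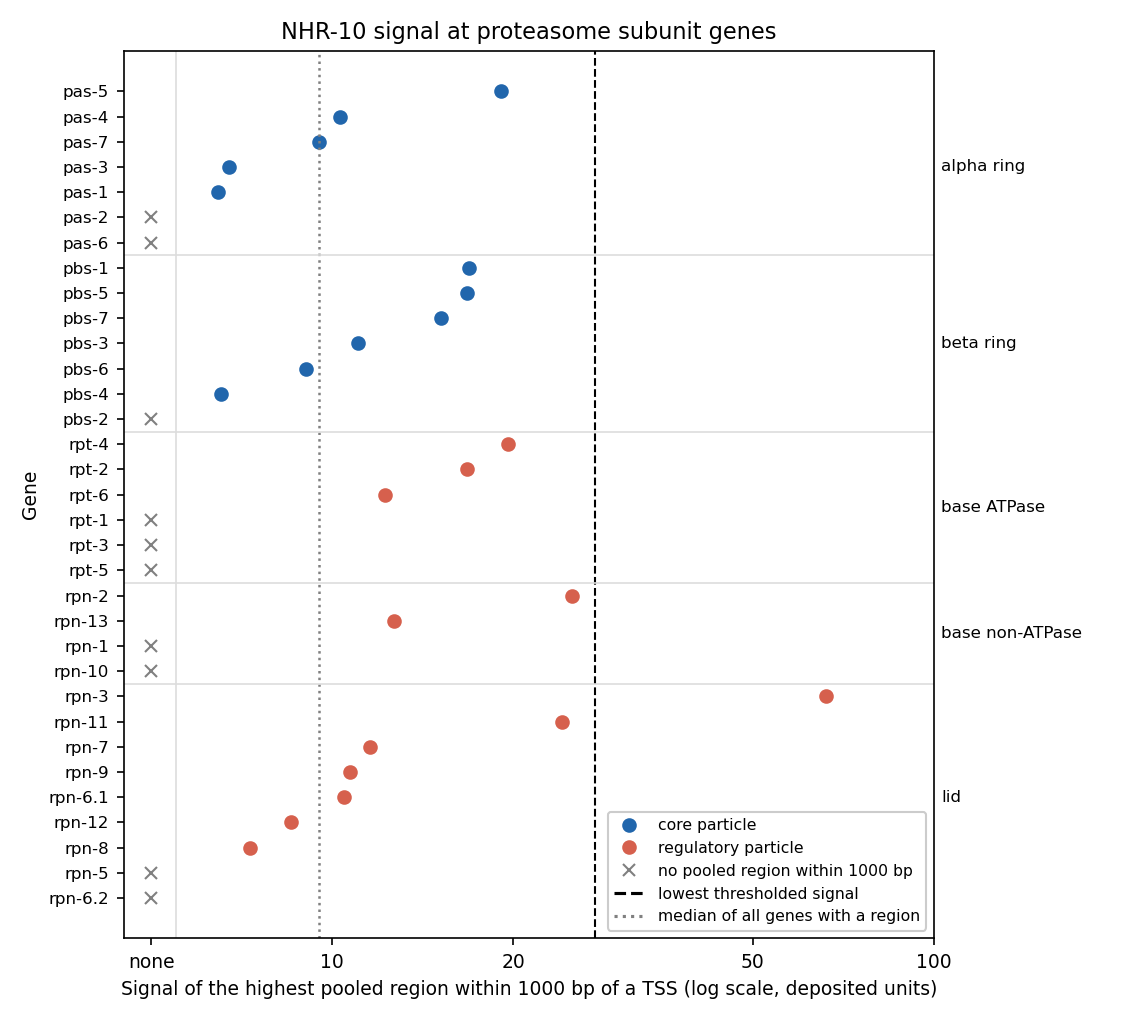
Signal of the highest pooled region within 1000 bp of a TSS, in deposited units on a log axis, for each of the 33 proteasome subunit genes, with the thresholded level marked. Only rpn-3, at 66.14, lies above the weakest thresholded region (27.36), and 10 genes have no pooled region.

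The lid held the strongest region of the family. The lid gene rpn-3 (WBGene00004460, chromosome III, 8447353 to 8449346, plus strand) encodes a non-enzymatic lid subunit. Its region spanned 8446963 to 8447352 with a pooled signal of 66.14, rank 68 of 30000, and the gene ranked 71 of the 10585 genes with a region. In replicate 1 its region had a signal of 12.36, rank 160 of 22993. In replicate 2 the signal was 52.33, rank 71 of 30000. The region thus stood among the highest 491 of each replicate list, the only member for which both lists gave this. The summit lay between genes, 195 bp upstream of rpn-3, in the stretch shared with hsp-110, a chaperone gene read in the other direction. The starts of the pair are 444 bp apart, so the region cannot be assigned to 1 of them. The sequence of the intergenic stretch around the summit is shown because it carries the family's single thresholded region, on ce11, plus strand, chrIII:8447096-8447258. It held none of the 8 words searched, which are given with the other windows, and so has no capitals.
rpn-3: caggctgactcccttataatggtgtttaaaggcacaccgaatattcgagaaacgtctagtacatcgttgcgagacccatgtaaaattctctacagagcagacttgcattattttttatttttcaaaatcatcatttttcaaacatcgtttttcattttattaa

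Among the other lid genes, rpn-11 stood highest. It encodes the metalloprotease that cuts ubiquitin chains off the substrate. Its region lay over its own 5′ UTR on chromosome II, 13 bp downstream of the start, with a pooled signal of 24.12 (rank 658). Replicate 2 gave 21.20 (rank 518), and replicate 1 had no region there, so rpn-11 rested on 1 replicate list. The opposite held at rpn-7, with 11.57 in the pooled list, 8.098 in replicate 1 (rank 660) and no region in replicate 2. rpn-7 was therefore the highest placed lid gene after rpn-3 in replicate 1. The remaining pooled signals were 10.69 at rpn-9, 10.46 at rpn-6.1, 8.525 at rpn-12 and 7.305 at rpn-8, the partner of rpn-11. Of these, rpn-6.1, known in C. elegans for its role in longevity, had its summit in an intron. The summit lay 973 bp downstream of an annotated start inside the gene, not of the start at its 5′ end. A weaker pooled region (8.308) had its summit 43 bp from an annotated start of rpn-6.1. rpn-8's summit lay in a coding exon of mrps-6, 388 bp from the start of that gene, a mitochondrial ribosomal protein gene. Neither rpn-5 nor rpn-6.2, a paralogue of rpn-6.1, had a pooled region.

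In the base, 5 of 10 genes (50%) had a pooled region, near the 53% of all genes. Of the 6 ATPase genes, rpt-4, rpt-2 and rpt-6 had pooled signals of 19.62, 16.74 and 12.22, and rpt-1, rpt-3 and rpt-5 had no region in any of the 3 lists (pooled, replicate 1, replicate 2). All 3 signals were above the all-gene median. rpt-4 gave 5.214 in replicate 1 (rank 2924) and 13.38 in replicate 2 (rank 1909), with its pooled summit 97 bp upstream of a start and inside an intron of another transcript of the same gene. rpt-2 had no region in replicate 1 and 17.04 in replicate 2 (rank 913), and the start of aps-1 was nearer to its summit (144 bp) than its own (157 bp). rpt-6 gave 15.85 in replicate 2 (rank 1122), and its highest replicate 1 region (3.712, rank 7761) was another one, 521 bp from the pooled summit.

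Of the 4 base subunits that are not ATPases, rpn-2 and rpn-13 had a region and rpn-1 and rpn-10 had none in any list. rpn-2 (WBGene00004459, chromosome III, 6199184 to 6202594, plus strand) encodes one of the large scaffold subunits. Its pooled signal was 25.04 (rank 602), the second highest of the family and just under the thresholded level. Replicate 2 gave 21.96 (rank 478), while replicate 1 had no region within 1000 bp of its start. The ubiquitin receptor gene rpn-13 had 12.64 in the pooled list, 5.749 in replicate 1 (rank 2129) and 7.935 in replicate 2 (rank 10275), and so was higher placed in replicate 1, although the replicate 2 summit was 238 bp from the pooled one.

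In the beta ring, which holds the proteolytic sites, 6 of 7 genes had a pooled region (85.7%, against 53% of all genes). Their median was 13.1, against 9.514 over all genes with a region. pbs-1 (WBGene00003947, chromosome IV, 1708814 to 1709745, minus strand) was highest, with 16.88 in the pooled list, 4.094 in replicate 1 (rank 6072, 125 bp from the pooled summit) and 13.65 in replicate 2 (rank 1787). pbs-5, whose product is the chymotrypsin-like subunit, gave 16.77 in the pooled list and 12.39 in replicate 2 (rank 2479). Its highest replicate 1 region (3.456, rank 9135) was a different one, 1370 bp from the pooled summit. The pooled summit was 864 bp upstream of pbs-5 and 14 bp from the start of K05C4.2, in the 5′ UTR of that gene. pbs-7 had a signal of 15.18 in the pooled list, 4.930 in replicate 1 (rank 3516) and 12.99 in replicate 2 (rank 2110), with its summit in its own coding exon 24 bp past the start. pbs-3 followed with 11.02 at a summit in the 3′ UTR of ulp-2, then pbs-6 with 9.029 and pbs-4 with 6.539. pbs-2 had no pooled region.

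In the alpha ring, 5 of 7 genes had a pooled region (71.4%, against 53% of all genes), with a median of 9.519, almost the all-gene median. pas-5 was highest at 19.11, with the summit 918 bp upstream of its start and a signal of 11.57 in replicate 2 (rank 3115). In replicate 1 its highest region within 1000 bp had a signal of 2.394 (rank 18134). A stronger replicate 1 region, rank 377, lay within 100 bp of the pooled summit but more than 1000 bp from the TSS, so the distance rule set this low rank. The other alpha genes with a region were pas-4 at 10.29, pas-7 at 9.519 with its summit in its own 3′ UTR, pas-3 at 6.741 and pas-1 at 6.451. pas-3 and pas-1 were closer at their summits to other genes, use-1 at 35 bp and rpoa-12 at 84 bp. pas-2 and pas-6 had no pooled region.

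The 10 genes with no pooled region were not all without signal. pbs-2, pas-6, rpn-5 and rpn-6.2 had regions in replicate 1, with signals of 4.627 (rank 4278), 4.581 (rank 4420), 3.503 (rank 8898) and 3.204 (rank 10790). All 4 were above the median region of that list (3.121), and pbs-2 and pas-6 were higher placed in it than pbs-1. Each had none in replicate 2, and the deposited lists cannot say whether a region just missed that list's limit. None of pas-2, rpn-1, rpn-10, rpt-1, rpt-3 and rpt-5 had a region in any of the 3 lists. These 6 genes are 18.2% of the members, against 30% of all genes. The closest pooled summit was 1118 bp away for rpt-3 and 1441 bp away for pas-2. It was farthest for rpn-6.2, at 7010 bp. Since the pooled and replicate 2 lists stop at 30000 regions, a missing region shows no more than that none ranked within the list.

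The core and regulatory particles were set side by side by counts and signals. A pooled region was found at 11 of 14 core genes (78.6%) and 12 of 19 regulatory genes (63.2%), and the background of 53% was below both. Core signals ran from 6.451 to 19.11 with a median of 10.29, and 7 of 11 were above the all-gene median. Regulatory signals ran from 7.305 to 66.14 with a median of 12.43, and 10 of 12 were above it. The ranges overlapped from 7.305 to 19.11, and 4 regulatory genes, rpn-3, rpn-2, rpn-11 and rpt-4, lay above the highest core gene. The highest 10% of pooled regions reached 4 of 14 core genes (28.6%) and 5 of 19 regulatory genes (26.3%). The regulatory particle held the 4 strongest regions under the 1000 bp limit. With a limit of 2000 bp, however, 2 core genes (pas-5 and pbs-2) and 1 regulatory gene had a thresholded region. Genes absent from all 3 lists were 5 of 19 in the regulatory particle (26.3%) and 1 of 14 in the core (7.14%), and 30% of all genes were absent. With 14 and 19 genes that are not replicates of a condition, no test of this difference was made.

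The replicates gave different accounts of the family. Replicate 1 had a region at 17 of 33 genes (51.5%, against 42.9% of all genes) and replicate 2 at 22 (66.7%, against 53.2%). Both lists had one at 12 genes (36.4%, against 29% of all genes), 10 genes had one in replicate 2 only and 5 in replicate 1 only. The highest region within 1000 bp was not always the same one in both lists. Of the 4 members with a region within 100 bp of the pooled summit in both, rpn-3 and rpt-4 stood higher in the list of replicate 2, relative to its length, and pas-5 and rpn-13 in that of replicate 1. The highest 491 regions of replicate 1 reached 1 member, rpn-3 (2.01% of all genes), and those of replicate 2 reached rpn-3 and rpn-2 (2.45% of all genes). In the highest 10% of each list, replicate 1 had rpn-3, rpn-7 and rpn-13 (9.09%, against 7.18% of all genes). Replicate 2 had 10 members (30.3%, against 10.4%), namely pbs-1, pbs-3, pbs-5, pbs-7, rpn-2, rpn-3, rpn-11, rpt-2, rpt-4 and rpt-6. The gap between the family and the background at this level was therefore mainly in replicate 2. Whether depth or the control moved with it was not tested, since the lists carry no read counts.

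**Figure D2:**
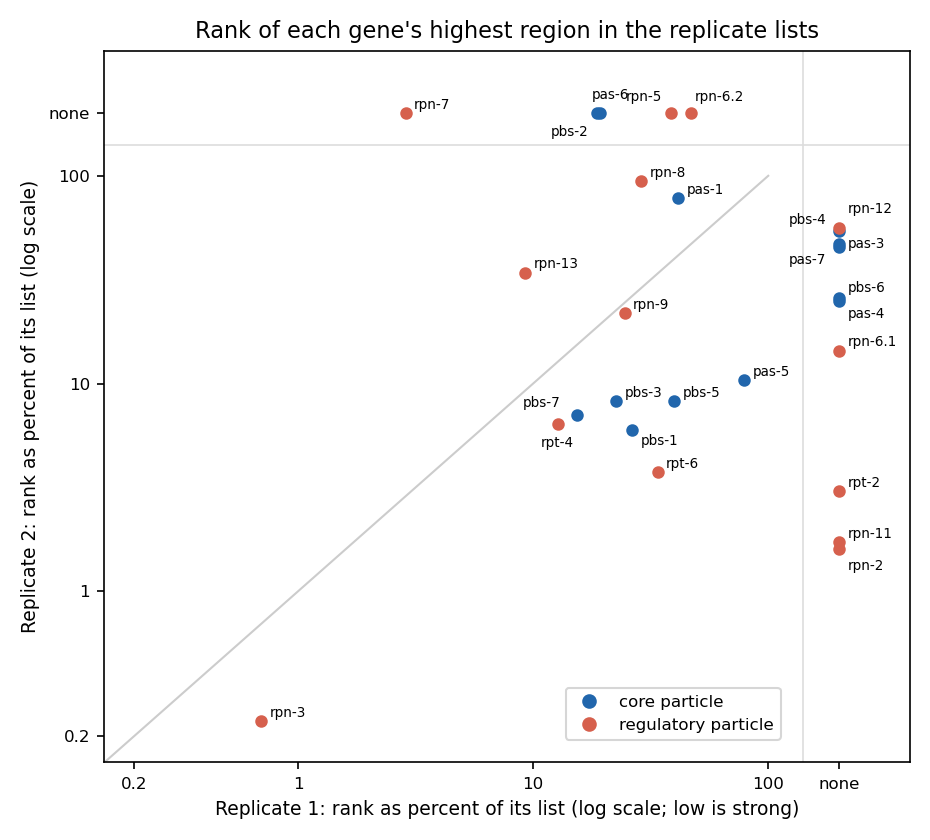
Place of each proteasome subunit gene's highest region in the replicate 1 list (x axis) and the replicate 2 list (y axis), as a percent of that list on log axes where low is strong, with genes missing from 1 list set at none. Only rpn-3 is near the top of both lists, and rpn-2 and rpn-11 are near the top in replicate 2 with no region in replicate 1.

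Replicate regions were also counted at the pooled summits themselves. Within 100 bp of the pooled summit, replicate 1 had a region for 9 of 23 members (39.1%), replicate 2 for 17 (73.9%) and both for 4 (17.4%). Over the 9119 pooled regions assigned to a gene, the shares were 29.1%, 71.1% and 17.6%. Neither replicate had one for 1 member region (4.35%), against 17.4% of the 9119. Among the 333 of these that passed the threshold, both replicates had a summit for 79.9%, and none was without one. The share matched in both replicates was thus near that of all assigned regions, and the share matched in neither was between those of all and thresholded regions.

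Most member regions lay upstream of the gene's start, and many lay near another gene's start as well. Of the 23 summits, 18 were upstream of the nearest start of the member (78.3%, against 60.8% of all genes with a region) and 14 were within 300 bp of it (60.9%, against 40.6%). The median distance was 240 bp, against 384 bp. By annotation, 13 summits were intergenic, 3 in a 5′ UTR, 3 in a coding exon, 2 in a 3′ UTR and 2 in an intron. These classes are given for the members alone, with no share over all regions beside them. Another gene's start lay within 1000 bp of 16 of the 23 summits (69.6%, against 29.9%). For 5 of the 23 another gene's start was nearer than the member's own. The gene itself was thus nearest for 78.3% of members with a region, against 84.6% of all genes with one. Many C. elegans transcripts are trans-spliced, so an annotated start can lie downstream of the true one.

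**Figure D3:**
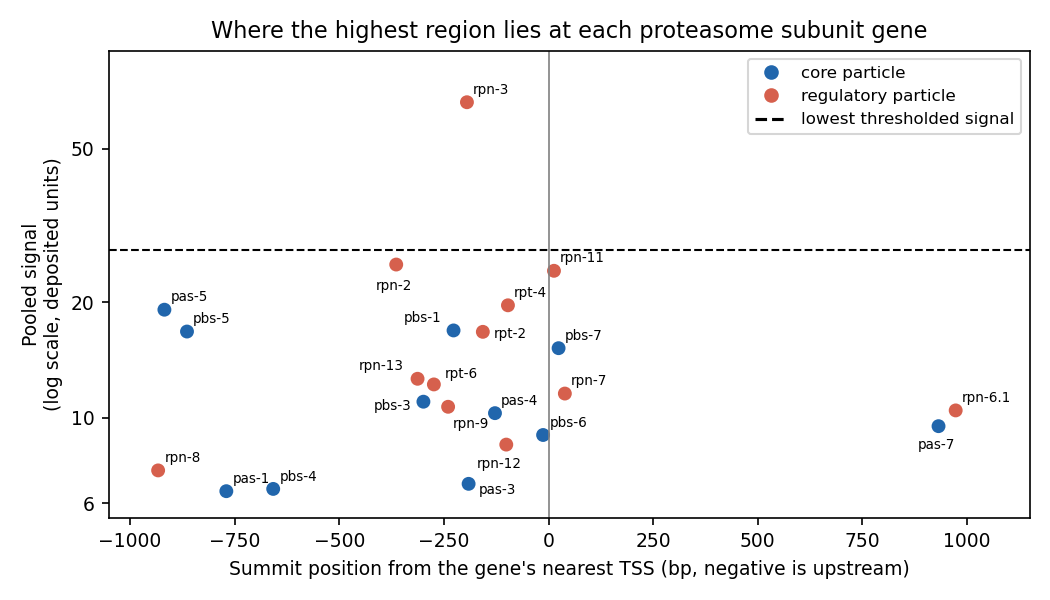
Position of the highest pooled summit from the nearest TSS of each gene (x axis, bp, negative upstream) against its pooled signal (y axis, deposited units, log scale), for the 23 members with a region. 18 of the 23 points are upstream, and rpn-3 at 195 bp is the only one above the thresholded level.

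Paired, opposite gene starts were a feature of the family as a whole, regions aside. A neighbour on the other strand started within 1000 bp upstream at 21 of 33 members (63.6%), 9 of 14 in the core and 12 of 19 in the regulatory particle. Across all protein-coding genes the share was 18.3%, and among cytoplasmic ribosomal protein genes it was 60.3%. Members with such a neighbour had a pooled region in 14 of 21 cases (66.7%) and the others in 9 of 12 (75%), whereas over all genes the shares were 60.4% and 51.3%. The members also shared chromosomes unevenly. 10 are on chromosome I, 7 of them core genes, and 8 on chromosome III, 7 of them regulatory genes. None of the members is on the X. Of the 19973 protein-coding genes, 2878 are on chromosome I, 2640 on chromosome III and 2731 on the X.

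The distance limit touched several members. Just inside 1000 bp were pas-5 at 918 bp (19.11), pas-7 at 932 bp (9.519), rpn-8 at 933 bp (7.305) and rpn-6.1 at 973 bp (10.46). Among those just outside were summits at 1009 bp from pbs-7 (9.539), 1038 bp from pas-4 (6.878), 1099 bp from rpn-9 (10.67), 1102 bp from pbs-2 (6.256), 1118 bp from rpt-3 (6.863) and 1138 bp from pas-5 (29.99). The last was in the thresholded list, and with a limit of 2000 bp the thresholded count rose from 1 to 3 members, rpn-3, pas-5 and pbs-2, while the share of all genes was 3.46%. A thresholded summit within 5000 bp was found for 6 members (18.2%), against 6.12% of all genes. Beyond rpn-3 and pas-5 these were pbs-2 at 1350 bp, rpt-1 at 2329 bp, rpn-8 at 2938 bp and rpn-13 at 3001 bp. In each of the last 4, another gene's start was nearer to the summit, namely tba-2, snr-4, egg-5 and trmt-10C.2.

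Short DNA words were then counted in windows of 201 bp centred on the summits, on both strands. The first was GAGAGA, a repeat of GA, and the next was GACGCA. The nuclear receptor words were AGTTCA together with AGGTCA. The GATA-factor word was TGATAA, and the E-box was searched as CACGTG. The forms of the SKN-1 site were TGTCAT as well as TATCAT. SKN-1A is known in C. elegans to raise proteasome gene expression when the proteasome is impaired. TGTCAT was present in 10 of 23 member windows (43.5%), 4 of 11 in the core and 6 of 12 in the regulatory particle. It was present in 9.73% of the 9119 windows assigned to any gene and in 8.41% of the 333 thresholded ones. The members were pas-1, pbs-1, pbs-5, pbs-6, rpn-2, rpn-7, rpn-11, rpn-12, rpt-2 and rpt-4, with the word 8 to 87 bp from the summit (counted to its first base on the plus strand), and rpn-3 was not among them. In windows with the summit within 300 bp of a start the shares were 9 of 16 members (56.2%) and 10.2% of all. With the regions of 1 replicate alone, the members' share was 31.8% in replicate 2 and 23.5% in replicate 1, against 10.1% of all windows in each.

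TGTCAT was also counted at the gene starts themselves, with or without a region. In the 300 bp from 250 bp before to 50 bp after the start, it was found at 12 of 33 members (36.4%), against 16.3% of all protein-coding genes. It was present at 8 of the 23 members with a pooled region (34.8%) and at 4 of the 10 without (40%), which were pas-2, pas-6, pbs-2 and rpt-1. The other form of the SKN-1 site, TATCAT, was in these start windows at 4 of 33 members (12.1%), below the 19.4% of all genes. Of the words common in thresholded windows, GAGAGA, in 34.2% of those and 14.7% of all, was in none of the 23 member windows. GACGCA, in 31.5% and 7.27%, was in 3 of the 23 member windows (13%), those of rpn-2, rpn-9 and rpt-6. In the gene start windows GACGCA went the other way, at 1 of 33 members (3.03%), against 8.78% of all genes. AGTTCA was in 2 member windows (12.3% of all windows), as were AGGTCA (5.11%) and TGATAA (20.4%). TATCAT was in 1 (12.3%), and CACGTG in none (3.98%). A word match is a description of the letters and not a binding site.

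The following windows are shown because they carry TGTCAT beside regions of high, middle and low signal in both particles. Each is printed 5′ to 3′ on the strand of the gene, on ce11, without annotated transcript sequence, and capitals mark the words searched. The rpn-2 window is chrIII:6198720-6198920, plus strand, signal 25.04, with GACGCA and, as ATGACA on the printed strand, TGTCAT 56 bp from the summit. The pbs-1 window is chrIV:1709872-1710072, minus strand, signal 16.88, with the word as ATGACA at 87 bp. The pbs-6 stretch is chrIII:8244093-8244205, minus strand, signal 9.029, with TGTCAT at 36 bp, and a second copy 18 bp from the summit lies outside the printed stretch. The rpn-12 window is chrII:11652923-11653123, plus strand, signal 8.525, with TGTCAT at 33 bp, AGTTCA as TGAACT and TGATAA as TTATCA. rad-23, a ubiquitin shuttle gene, starts 395 bp from the start of rpn-12 and is read the other way.
rpn-2: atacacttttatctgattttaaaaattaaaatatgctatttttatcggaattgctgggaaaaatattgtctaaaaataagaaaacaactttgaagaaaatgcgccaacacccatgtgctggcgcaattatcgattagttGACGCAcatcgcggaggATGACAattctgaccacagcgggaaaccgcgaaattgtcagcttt
pbs-1: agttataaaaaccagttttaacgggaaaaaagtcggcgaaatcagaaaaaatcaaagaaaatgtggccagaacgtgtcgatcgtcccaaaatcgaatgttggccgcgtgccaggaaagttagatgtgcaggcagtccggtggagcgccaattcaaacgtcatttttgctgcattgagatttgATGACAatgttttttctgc
pbs-6: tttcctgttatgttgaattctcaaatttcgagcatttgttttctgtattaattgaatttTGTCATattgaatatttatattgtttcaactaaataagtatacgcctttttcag
rpn-12: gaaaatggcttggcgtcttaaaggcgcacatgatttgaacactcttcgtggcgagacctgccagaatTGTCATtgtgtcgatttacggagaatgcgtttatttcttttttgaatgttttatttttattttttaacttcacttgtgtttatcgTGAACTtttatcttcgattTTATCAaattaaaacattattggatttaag

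In base composition the member windows were near all windows. The median GC content was 36.8% over the 23 members, from 30.8% to 47.8%, and 35.3% over all assigned windows. It was 43.3% over the thresholded windows. Core and regulatory medians were 36.8% and 36.6%, and rpn-3 itself was at 36.8%.

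Genes listed as ubiquitin and proteasome regulators had more thresholded regions by count than the 33 members taken by the name rule. Of 30 ubiquitin and proteasome regulators, 23 (76.7%) had a pooled region and 4 (13.3%) a thresholded one, with a median signal of 14.02. cdc-48.1, the segregase that extracts ubiquitin-tagged proteins, was highest at 115.4 (rank 21), above rpn-3. ubq-2, a ubiquitin gene, had 36.34 (rank 257, frg-1 nearer), cul-3, a ubiquitin ligase scaffold, 34.6 (rank 290), and aip-1, whose product associates with the proteasome, 31.08 (rank 370). The chaperonin CCT, which folds actin and tubulin, had 6 of 8 genes with a region and 2 thresholded, cct-8 at 93.54 (rank 34, Y55F3AR.2 nearer) and cct-1 at 67.54 (rank 67, mig-5 nearer). The COP9 signalosome, a complex built like the proteasome lid, had 5 of 6 genes with a region, none thresholded, and a median of 7.228. Cytoplasmic ribosomal protein genes had 69 of 78 with a region (88.5%) and 26 thresholded (33.3%), with a median of 20.29. Mitochondrial ribosomal protein genes had 58 of 70 (82.9%) and 3 (4.29%), with 10.72. HSP chaperone genes had 17 of 22 (77.3%) and 6 (27.3%), with 14.15. These lists were not independent of the subunits. The rpn-3 region also lay within 1000 bp of hsp-110, and the rpn-8 region within 1000 bp of mrps-6. The proteasome median of 11.57 thus lay near the mitochondrial ribosomal one, as a description of lists that received no test.

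**Figure D4:**
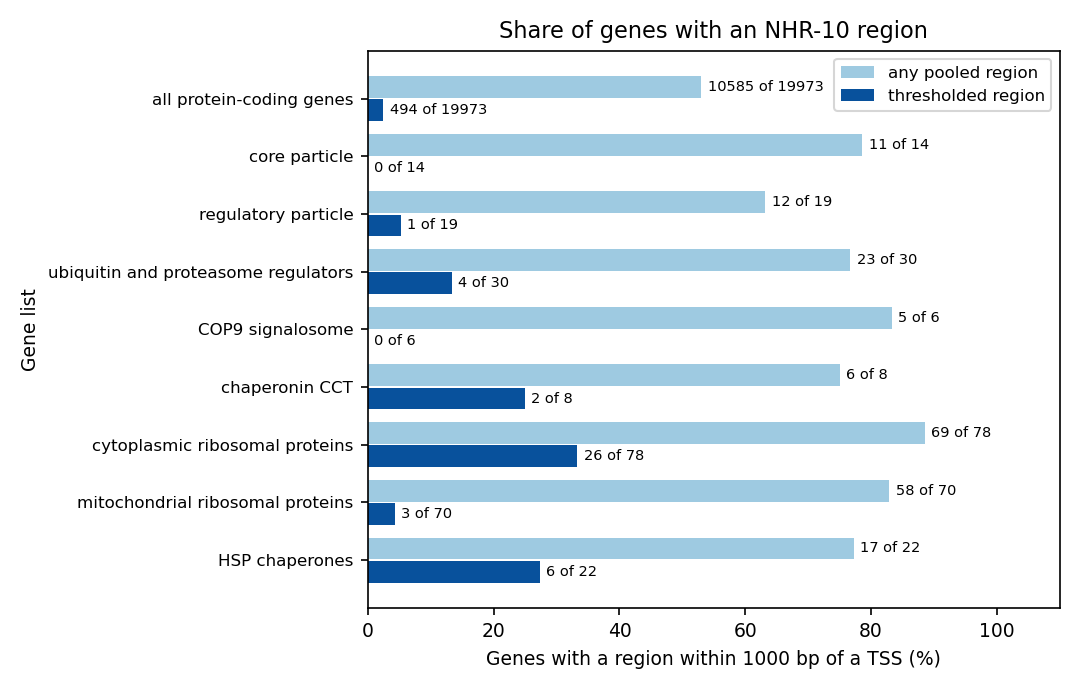
Share of genes in each list with a pooled region and with a thresholded region within 1000 bp of a TSS (percent of genes), for the core and regulatory particles, the other lists and all protein-coding genes. The pooled bars of both particles (11 of 14 and 12 of 19 genes) are longer than that of all genes (53%), and the thresholded bars stand at 0 of 14 core genes and 1 of 19 regulatory genes (5.26%), against 2.47% of all genes.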

How the data were processed

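NHR-10 ChIP-seq was available for 2 biological replicates of 1 group. Signal, the deposited value of each region, is the authors' own, and its scaling between lists was not stated, so it was read within 1 list and no mean or SD over replicates was computed. Per the deposited notes, each replicate list was made from that replicate's alignment and a control, the pooled list from the 2 alignments combined with the control, and the thresholded list by IDR from these. The caller, aligner and IDR cutoff are not given in the sources used here. The lists held 22993 (replicate 1), 30000 (replicate 2), 30000 (pooled) and 491 (thresholded) regions on ce11, with no read counts, so depth is unknown. The ce10 lists were not used here.

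Genes and every annotated TSS came from Ensembl release 115, and sequence from RefSeq's WBcel235 assembly, which is ce11. A gene received its region of highest signal with a summit within 1000 bp of a TSS. Neighbours were named where nearer to the summit, members always, and other listed genes where thresholded. The members and lists were chosen with earlier results of these data known, and no test was made, since genes are not replicates. Alternatives changed the distance, the assignment, the stringency and the replicate used. Python 3.11.15, numpy 2.4.6 and pandas 2.3.3 were used. Assignment was checked on simulated regions, some planted beyond the 1000 bp limit, and matched an exhaustive search in 200 of 200 cases.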

Additional observations from a re-analysis of the deposited data

How the results depend on the processing

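The thresholded count was 1 member (0 core, 1 regulatory) in the results as reported. It was 3 members and 2 core genes with a limit of 2000 bp, and 2 members and 1 core gene when any base of a region within 1000 bp sufficed. With 1 replicate at a time, taking its highest 491 regions as thresholded, the members' count ranged from 1 to 2 and the regulatory count from 1 to 2, the second gene being rpn-2 without replicate 1. The members' median signal ranged from 4.203 to 11.04 in single replicate lists, the core median from 4.219 to 8.846 and the regulatory median from 4.203 to 13.38, on unlike scales, and each stayed within 1.5 times the reported ratio to its list's all-gene median. The TGTCAT share in member windows, alternatives for which were chosen after seeing the data, was 43.5% as reported, 23.5% without replicate 2 and 31.8% without replicate 1 (all windows 10.1% in each), and the cause was not tested. It was 34.8% with 50 bp on each side of the summit (all windows 4.81%), 43.5% with 200 bp (18.9%), 36.4% at gene starts (16.3%) and 38.9% where the member was the nearest gene (9.76%), against 9.73% of all windows as reported, so the ratio to the background varied with the window. No paired analysis was possible because there was 1 group. Unknown depth and lists that stop at 30000 regions limit what a missing region can show.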

Other observations

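TGTCAT in the 300 bp gene start windows was also found at 10 of the 30 genes listed as ubiquitin and proteasome regulators (33.3%). Among them were cdc-48.1, aip-1 and usp-14, and the share of all protein-coding genes was 16.3%. It was present at 10.3% of cytoplasmic and 14.3% of mitochondrial ribosomal protein genes. TATCAT, the other form of the SKN-1 site, was in these windows at 5 of the 30 regulators (16.7%), against 19.4% of all genes. TGATAA was in these windows at 10 of 33 members (30.3%), near the 30.2% of all genes. By particle, it was at 8 of 19 regulatory particle genes (42.1%) and 2 of 14 core particle genes (14.3%). These comparisons of words were chosen after their values were seen and are given as values with no test.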
